A study of Mus musculus with 14 samples.

Results

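The cytosolic ribosomal protein genes were taken from a table of 56414 genes measured by bulk RNA-seq in 14 mouse mammary tumors. They were chosen by symbol alone: Rpl or Rps followed by a digit, or Rplp0, Rplp1, Rplp2 or Rpsa, without the rows marked as pseudogenes and without the Rps6k kinases. The rule gave 87 genes, of which 42 encode proteins of the large subunit, 31 proteins of the small subunit and 3 proteins of the ribosomal stalk, whereas 11 are relatives of these genes or carry a similar symbol. One of the latter, Rps19bp1, encodes a protein that binds Rps19 and regulates the deacetylase Sirt1, and is no part of the ribosome. In every comparison 86 of the 87 genes had a group mean of at least 10 normalized counts and were tested. Rpl10l, a retrogene of Rpl10 known from the testis, was at 0 in 13 tumors and at 1.61 normalized counts in untreated M/D tumor 4.

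The tumors came from female C57Bl/6 mice and belong to 2 models. M/D-driven tumors arose in the mouse itself after a pellet of 50 mg medroxyprogesterone acetate (M), which releases over 90 days, and gavages of 200 µL of 7,12-dimethylbenz[a]anthracene (D) at 5 mg/mL, started at 6 to 9 weeks of age. AT3 tumors grew from cells of the AT3 mouse mammary carcinoma line injected under the skin. Both models were left untreated (4 M/D, 3 AT3 tumors) or received NAM (nicotinamide, a form of vitamin B3) at 0.5% in the drinking water for 10 days (4 M/D, 3 AT3 tumors), and treatment began at a tumor area of 0.25 cm2. Each library came from 1 tumor. The labels place NAM-treated M/D tumor 1 in experiment 2, every further M/D tumor in experiment 1 and the AT3 tumors in experiment 3, so that model and experiment cannot be told apart. The AT3 tumors all derive from 1 cell line, whereas each M/D-driven tumor arose on its own.

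Ribosomal proteins build the small and the large subunit of the ribosome around the ribosomal RNAs, and are needed in nearly equal numbers. Their mRNAs are among the most abundant of a growing cell and carry a pyrimidine tract at the 5′ end (TOP mRNAs), through which the kinase mTOR and the RNA-binding protein Larp1 control their translation. Ribosome production is a main cost of growth, and in mammary tumors it is known to follow Myc and mTOR activity. Several members have tasks outside the ribosome: Rpl5 and Rpl11 bind Mdm2 and hold back p53 degradation when ribosome assembly fails, and Rps6 is the classical target of the S6 kinases.

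The promoters of the members are shown because the members moved together. RefSeq promoters (GRCm38.p6, the assembly also known as mm10) were matched by symbol for 66 of the 87 members, with 78 start sites. Of each promoter shown, 60 bases before and 20 bases after the start are printed in the sense of the gene. Capitals mark the motif CTTCCG (read on both strands, as CTTCCG or CGGAAG), the core bound by ETS factors. They also mark CTTTCC and CTCTTT (sense strand only, short pyrimidine tracts, which overlap where CTCTTT is followed by CC). Apart from the paralog pairs further below, a promoter was printed only where its printed stretch held a marked motif. Rpl37, Rpl36a and Rpl38, which encode small proteins of the large subunit, had among the smallest p values for NAM in AT3 tumors. Rps6 is shown because its protein is the target of the S6 kinases, whose activity was not measured here. Rpl4, a large-subunit protein at the exit tunnel, did not pass the test in AT3 tumors.
Rpl37 (chr15:5116553-5116632, plus strand): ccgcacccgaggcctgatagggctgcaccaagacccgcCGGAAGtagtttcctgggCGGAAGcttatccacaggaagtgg
Rpl36a (chrX:134585594-134585673, plus strand): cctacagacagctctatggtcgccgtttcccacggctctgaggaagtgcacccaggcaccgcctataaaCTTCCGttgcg
Rpl38 (chr11:114668520-114668599, plus strand): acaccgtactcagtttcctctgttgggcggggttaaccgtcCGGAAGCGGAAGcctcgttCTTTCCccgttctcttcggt
Rps6 (chr4:86857348-86857427, minus strand): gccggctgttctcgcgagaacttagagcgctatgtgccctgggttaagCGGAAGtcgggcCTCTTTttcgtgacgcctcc
Rpl4 (chr9:64173327-64173406, plus strand): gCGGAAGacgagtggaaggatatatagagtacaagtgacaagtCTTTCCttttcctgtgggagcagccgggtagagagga
In the whole promoters, which run from 250 bases before to 50 bases after a start, CTTCCG on either strand was present in 47 of the 78 promoters of members (60.3%), against 16.9% of all 32851 promoters. CTTTCC was present in 35.9% of the members' promoters and in 14.1% of all promoters, and CTCTTT in 33.3% and 12.1%. In the printed stretch of 80 bases alone, CTTCCG was present in 30.8% of the members' promoters and in 8.13% of all promoters. Every promoter shown above holds it there, so those shown are not typical of the members. The 44 tested members with CTTCCG had a median log2 fold change of -1.12 under NAM in AT3 tumors, and the 21 without it one of -0.95. The values overlapped, from -1.62 to -0.35 with the motif and from -1.44 to -0.45 without it. The medians were -1.03 with and -1.10 without CTTTCC, and -1.08 with and -1.07 without CTCTTT. Transcript length was not taken into account in these splits. A match describes these letters only.

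A few facts of the libraries bear on the members. The deposited normalized counts were whole multiples of 1 read, and 40936868 to 84178009 reads were recovered per tumor. Markers of mammary epithelium (11 of 11 genes of the list measured) summed to 314422 to 1020840 normalized counts in the untreated M/D tumors and to 270828 to 620512 in NAM-treated M/D tumors 2 to 4, but to 8116 in NAM-treated M/D tumor 1, where leukocyte markers (10 of 10 measured) summed to 152079 against 6008 to 20951 in the other 7 M/D tumors. This tumor therefore went against its label as mammary tissue, and values without it are given. AT3 tumors held 73847 to 101252 normalized counts of the epithelial markers, but both models were normalized apart, so their sums are not on a common scale. In bulk tumors, fewer cells of a type and less RNA per cell cannot be told apart. The labels do not say whether each tumor came from a mouse of its own, so p values measure only the spread between these samples.

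Together, the members made up between 3.57 and 13.1% of all reads in single tumors. The share was 4.91, 5.92, 4.19 and 5.09% in untreated M/D tumors 1 to 4 (5.03 ± 0.712, SD, n = 4) and 5.99, 5.40, 5.14 and 3.57% in NAM-treated M/D tumors 1 to 4 (5.02 ± 1.04, SD, n = 4). Both groups of M/D tumors overlapped and had nearly the same mean, with the lowest share in NAM-treated tumor 4. Untreated AT3 tumors 1 to 3 gave 13.1, 7.82 and 12.0% of their reads to the members (10.9 ± 2.76, SD, n = 3), and NAM-treated AT3 tumors 1 to 3 gave 8.10, 6.27 and 5.76% (6.71 ± 1.23, SD, n = 3). The AT3 groups overlapped because untreated tumor 2 lay just below NAM-treated tumor 1. Every untreated AT3 tumor lay above every M/D tumor of either group, and 2 of the 3 NAM-treated AT3 tumors did as well. The large subunit took 1.76 to 2.46% of the reads of untreated M/D tumors and 3.35 to 5.25% of those of untreated AT3 tumors.

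**Figure D1:**
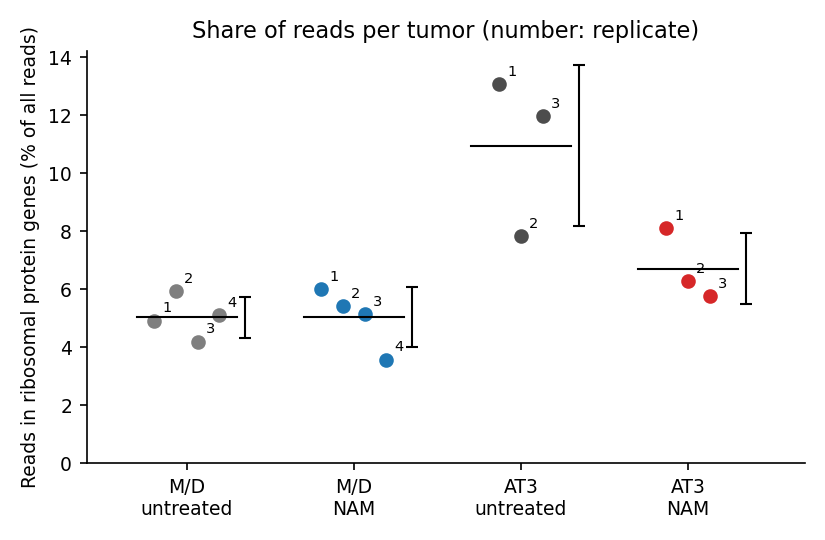
Reads in the 87 ribosomal protein genes as a percent of all recovered reads (y axis) in each tumor (points, numbered by replicate) of the 4 groups (x axis), with the mean (line) and SD (bar). The untreated AT3 tumors 1 and 3 sit at 13.1 and 12.0%, apart from untreated AT3 tumor 2 at 7.82%, and the M/D-driven tumors lie between 3.57 and 5.99%.

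Within each model the members rose and fell together from tumor to tumor. In AT3 tumors, 83 of 86 members correlated at an r above 0.9 with the median of the other members across the 6 tumors, which share libraries and scaling, and the median r was 0.991. In M/D tumors the median r over 8 tumors was 0.947, and 62 of 86 members were above 0.9. The standard deviation of a member across tumors, on the log2 scale, had a median of 0.346 in M/D tumors, against 0.712 for all genes tested. In AT3 tumors it was 0.715, against 0.528 for all genes tested, so that the members varied more than the typical gene there and less in M/D tumors. Once the deviation shared by the members of a tumor was taken off, the median SD left was 0.112 in M/D and 0.144 in AT3 tumors. The r over so few tumors, NAM-treated and untreated together, describes these libraries only, and none was computed for other genes. In AT3 tumors the mitochondrial ribosomal protein genes moved in the same way. On the log2 scale their median deviation from each gene's mean was 0.65, -0.22 and 0.66 in untreated tumors 1 to 3. In NAM-treated tumors 1 to 3 it was 0.0022, -0.50 and -0.57. For the members it was 0.91, -0.13 and 0.79, and -0.12, -0.65 and -0.79. That of the ribosome biogenesis genes lay between -0.09 and 0.12. The members that varied most on their own in M/D tumors were Rpl3l, Rpl39l and Rps4l, with 2.47, 1.54 and 1.11 left, and the lowest r values, of -0.34, -0.26 and -0.13, belonged to the same 3 genes. The next was Rpl10, a protein of the subunit joining face encoded on the X chromosome, with 0.437 left.

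**Figure D2:**
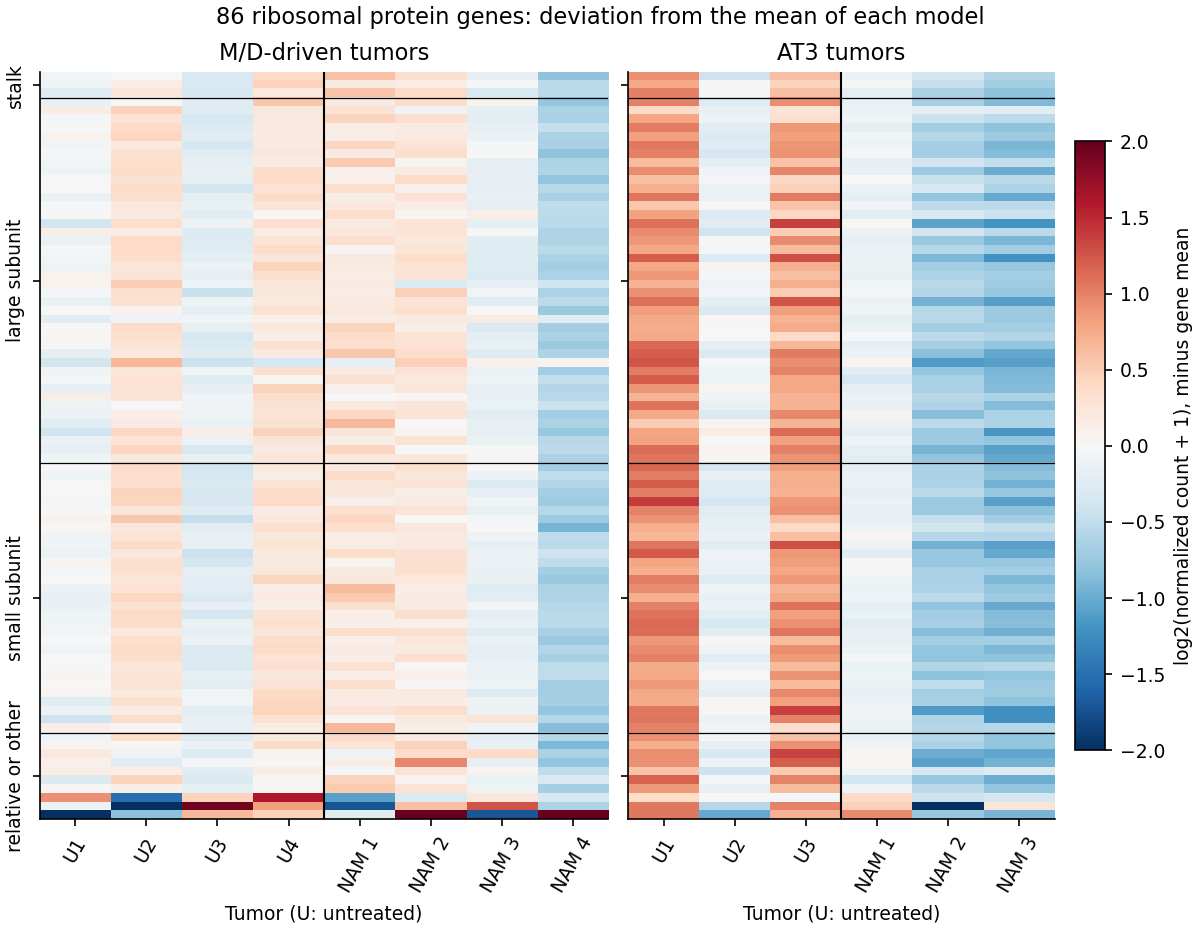
Heat map of the 86 tested ribosomal protein genes (rows, grouped by class and ordered by level) in the 8 M/D-driven and 6 AT3 tumors (columns), as log2(normalized count + 1) minus the gene's mean in that model, with the color scale ending at -2 and 2. In AT3 tumors nearly all rows are above the mean in untreated tumors 1 and 3 and below it in NAM-treated tumors 2 and 3, in M/D tumors NAM-treated tumor 4 is lowest in most rows, and the bottom rows, Rps4l, Rpl39l and Rpl3l, follow patterns of their own.

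Levels of different genes were compared per kilobase of coding sequence, as normalized counts averaged over the tumors of a model. Both models were normalized apart, so levels and sums are to be compared within a model only. Rpl41, whose coding sequence of 75 bases is the shortest of the members, had the highest level in both models, at 955295 per kilobase in M/D and 2162560 in AT3 tumors. Rplp1, an acidic protein of the stalk that recruits elongation factors, came next in both, at 337880 and 496629 per kilobase. Reads were counted over the constitutive parts of genes and not over the coding sequence alone, so a short coding sequence can raise this level. By mean normalized count, Rpl41 was below Rplp1 in untreated (73141 against 119881) and NAM-treated M/D tumors (70153 against 111229). In AT3 tumors it was above Rplp1 untreated (225395 against 216165) and below it under NAM (98989 against 123529). The lowest levels among tested members belonged to the relatives Rpl3l, at 114 per kilobase in M/D and 19.6 in AT3 tumors, and Rpl39l, at 582 and 528. The annotation gave no coding sequence for 3 members, Rps4l, Rpl32l and Rpl37rt, so they have no level per length. The authors' handling of reads shared with processed pseudogenes is not given in the sources used here, and levels of members with near-identical copies are uncertain for that reason. The 7 pseudogene rows of the table summed to 63594 to 189485 normalized counts in AT3 tumors, and to 52010 to 89754 in M/D tumors.

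The first comparison asks what NAM did to the members in M/D-driven tumors. A gene was called where limma on log2(normalized count + 1) gave an unadjusted p no larger than 0.05 together with a change of 1.5-fold or more. Fold changes on this scale understate the change of genes with few counts. Of the 86 tested members, 0 were called in either direction, against 3.03% of the 21700 genes tested that were higher and 3.19% that were lower. At an unadjusted p of 0.05 alone, 0 members passed, and the edgeR test also called 0. The DESeq2 test called 1 (Rpl3l, higher), beside 1287 of all 21700 genes that it called higher. The members' log2 fold changes ran from -0.74 to 1.88, with a median of -0.13 and 75 of 86 below 0, beside a median of 0.01 over all genes. The smallest Benjamini-Hochberg adjusted p of a member was 0.744.

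Rpl22, a large-subunit protein that also binds cellular and viral RNAs, had the smallest p of the members below 0. Its normalized counts were 34266, 45898, 30680 and 38640 in untreated M/D tumors 1 to 4 and 36895, 27124, 28823 and 24823 in NAM-treated M/D tumors 1 to 4. The groups overlapped, with a log2 fold change of -0.35 ± 0.196 (SE, limma, unadjusted p = 0.114). Rpl31, of the large subunit, followed with a log2 fold change of -0.33 ± 0.188 (SE, limma, unadjusted p = 0.118).

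The largest difference belonged to Rpl3l, the paralog of Rpl3 that is known from striated muscle. It had 2.08, 28.2, 80.4 and 70.0 normalized counts in untreated M/D tumors 1 to 4 and 42.4, 206, 14.7 and 668 in NAM-treated M/D tumors 1 to 4. The groups overlapped and the log2 fold change was 1.88 ± 1.41 (SE, limma, unadjusted p = 0.217). The 10 skeletal muscle markers of the list summed to 278, 1082, 34643 and 17777 normalized counts in the same untreated tumors and to 3983, 106363, 1535 and 315002 in the same NAM-treated tumors. The tumors with the most Rpl3l, NAM-treated tumors 4 and 2, were those with the most muscle marker counts. The part of muscle in the values of other members was not tested, and NAM-treated tumor 4 also had the lowest level of 80 of 86 members among the 8 tumors.

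Leaving out single M/D tumors gave at most 1 call, and leaving out NAM-treated tumor 4 alone turned the sign of the members' median. Without it the median log2 fold change was 0.05 and 57 of 86 members were above 0. Without NAM-treated tumor 1, the tumor of experiment 2, it was -0.25, 80 of 86 were below 0 and 0 members were called. Rps4l had the lowest log2 fold change, with -0.74 ± 0.629 (SE, limma, unadjusted p = 0.273). Scaling to total reads in place of the deposited scaling gave a median of -0.02, against 0.13 for all genes.

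The second comparison is that of NAM in AT3 tumors. Here 86 of 86 members were below 0, 78 of them (90.7%) were called lower by the same thresholds and 0 were called higher, while 10.9% of all 19281 genes tested were lower. The log2 fold changes of the members ran from -1.62 to -0.23 with a median of -1.04, beside a median of -0.05 over all genes. By class, 31 of 31 genes of the small subunit were lower (median -1.09), 39 of 42 of the large subunit (median -1.04), 2 of 3 of the stalk (median -0.80) and 6 of 10 relatives (median -0.98). The adjusted p values of the 78 lay between 0.166 and 0.205, so that no member reached 0.05 with limma, nor with edgeR (0 members), and 67 did with DESeq2, which passed 10.6% of all genes.

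In 36 of 86 members every NAM-treated AT3 tumor lay below every untreated one, against 11.0% of all genes tested. In 50 members untreated tumor 2 was at or below the highest NAM-treated tumor, which was tumor 1 in 86 of 86. Untreated tumors 1 and 3 were both above every NAM-treated tumor in 84 members. Without untreated tumor 2, 82 of 86 members were lower (17.5% of all genes) and 82 had an adjusted p no larger than 0.05 (13.3% of all genes in either direction), and the median log2 fold change was -1.35. Without untreated tumor 1 or 3, 40 and 47 members were lower (5.08 and 6.07% of all genes) with 0 at that adjusted p, and without NAM-treated tumor 3, 43 were (3.69% of all genes).

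Rpl37 had the smallest p. Its normalized counts were 10944, 7066 and 13980 in untreated AT3 tumors 1 to 3 and 5511, 3851 and 2842 in NAM-treated AT3 tumors 1 to 3. The groups did not overlap, and the log2 fold change was -1.39 ± 0.322 (SE, limma, unadjusted p = 0.00197, adjusted p = 0.166). Rpl36a fell from 9952, 4768 and 9223 to 4019, 2404 and 2163 normalized counts (log2 fold change -1.46 ± 0.343, SE, limma, unadjusted p = 0.0021). Rpl38, which is known to affect the translation of Hox mRNAs in the embryo, fell from 6290, 3107 and 5577 to 2579, 1733 and 1464. Its log2 fold change was -1.35 ± 0.322 (SE, limma, unadjusted p = 0.00231), and in both genes the groups did not overlap. Rpl37a, of the large subunit, and Rpl32l, counted among the relatives, also had small p values, with log2 fold changes of -1.13 ± 0.29 and -1.42 ± 0.334 (SE). Rpl32l resembles Rpl32, and whether their reads were kept apart is not given in the sources used here.

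The largest fall belonged to Rps13, a small-subunit protein at the bridge between the subunits. It had 18800, 9204 and 23442 normalized counts in untreated AT3 tumors 1 to 3 and 8640, 4155 and 3876 in NAM-treated tumors 1 to 3. The groups did not overlap, with a log2 fold change of -1.62 ± 0.41 (SE, limma, unadjusted p = 0.00334).

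The members with tasks of their own were mostly lower as well. Rplp0, the base of the stalk, had 416538, 167204 and 336002 normalized counts in untreated AT3 tumors 1 to 3 and 205503, 169872 and 146387 in NAM-treated tumors 1 to 3, with overlapping groups and a log2 fold change of -0.73 ± 0.361 (SE, limma, unadjusted p = 0.0733) that did not pass. The other stalk proteins passed, Rplp1 with a log2 fold change of -0.80 ± 0.297 and Rplp2 with -1.09 ± 0.298 (SE). Rpsa, which is also known as a laminin receptor, had 196967, 93358 and 160039 normalized counts untreated and 94503, 76951 and 65462 under NAM (log2 fold change -0.88 ± 0.317, SE, limma, unadjusted p = 0.0221). Rps6 had 123692, 66422 and 128958 untreated and 71883, 42444 and 42580 under NAM (log2 fold change -1.01 ± 0.335, SE, limma, unadjusted p = 0.0148). In Rpsa and in Rps6, untreated tumor 2 was below NAM-treated tumor 1. The Mdm2 binding partners Rpl5 and Rpl11 were lower by log2 fold changes of -0.95 ± 0.368 and -1.08 ± 0.338 (SE), and Rps27a, which is made as a fusion with ubiquitin, by one of -1.11 ± 0.309 (SE). Rps19bp1, the Sirt1 regulator, was lower with a log2 fold change of -0.90 ± 0.306 (SE, limma, unadjusted p = 0.0162).

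The 8 members that did not pass were Rpl3, Rpl4, Rpl7a, Rplp0, Rpl7l1, Rpl39l, Rpl3l and Rps4l. Rpl4 had 202897, 140806 and 188118 normalized counts in untreated and 141762, 137718 and 133456 in NAM-treated AT3 tumors, a log2 fold change of -0.35 ± 0.243 (SE, limma, unadjusted p = 0.186). It varied least of the members across AT3 tumors, with an SD of 0.261 on the log2 scale. Rpl3 and Rpl7a, both core proteins of the large subunit, had log2 fold changes of -0.64 ± 0.293 and -0.69 ± 0.34 (SE), and Rpl7l1, a nucleolar relative of Rpl7, one of -0.45 ± 0.285 (SE). Rps4l was closest to 0, with 475, 368 and 360 normalized counts untreated and 486, 275 and 291 under NAM (log2 fold change -0.23 ± 0.292, SE).

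**Figure D3:**
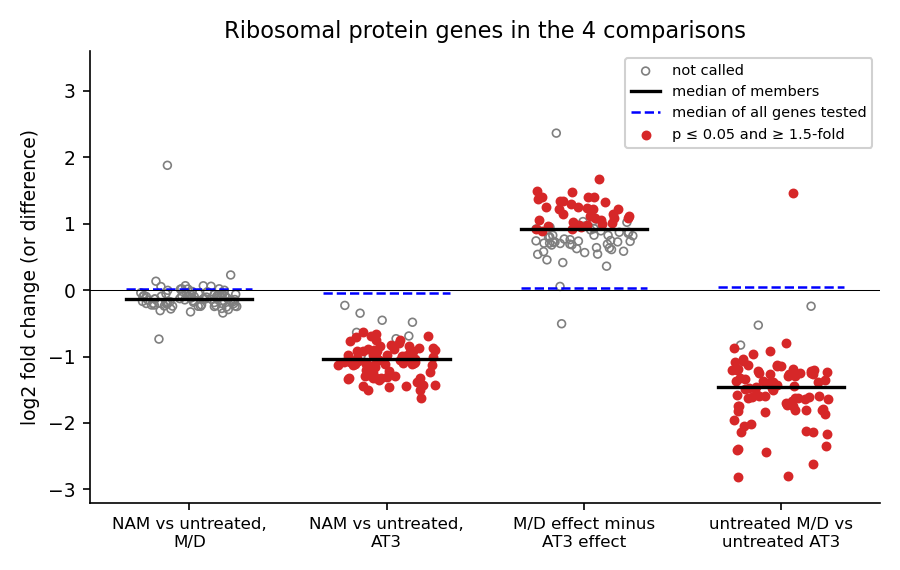
Log2 fold change of each of the 86 tested ribosomal protein genes (points, y axis) in the 3 comparisons of groups and in the difference of the NAM effect between models (x axis). Filled points passed p of at most 0.05 and 1.5-fold, open points did not, black lines are the medians of the members (-0.13, -1.04, 0.91 and -1.47) and dashed lines those of all genes tested, and the open point above all others in M/D tumors is Rpl3l at 1.88.

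Transcript length moved with this result. Over the 16429 genes tested in AT3 tumors with an annotated length, the log2 fold change rose with transcript length (Spearman rho 0.618 across genes, which are not independent). The median transcript of a tested member was 765.5 bases long, against 2521 bases for all of these genes. Other genes with transcripts of up to 1000 bases numbered 1789, and 40.1% of them were lower, with a median log2 fold change of -0.74, whereas 6.47% of the 14554 with longer transcripts were. Once the trend of each tumor's values with length and GC content across genes was subtracted, 17 of 86 members were lower, against 6.92% of all genes so tested, and the members' median was -0.38. Rps13 (-1.05, limma, unadjusted p = 0.000929) and Rpl37 (-0.72, unadjusted p = 0.000761) still passed after this removal, and Rpl22 was lower by -0.79 (unadjusted p = 0.00426). Not every member moved toward 0. Named after their values were seen, Rps15a went from -1.32 to -1.88 and Rps20 from -0.89 to -1.07. Both count among the 17 members that were lower. The length used for a gene was the median over its annotated transcripts. The part of this choice in both shifts was not tested. After the removal, Rplp1 was at -0.03 and Rpl4 at -0.02. Among the members themselves, rho between log2 fold change and transcript length was 0.377 (n = 86). The correlation of a tumor's deviations with length was -0.57, 0.05 and -0.56 in untreated AT3 tumors 1 to 3 and -0.20, 0.59 and 0.62 in NAM-treated tumors 1 to 3, the order in which the tumors also stood for the share of reads in the members, with untreated tumor 2 and NAM-treated tumor 1 in the middle. Its part in the result beyond the removal above was not tested.

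**Figure D4:**
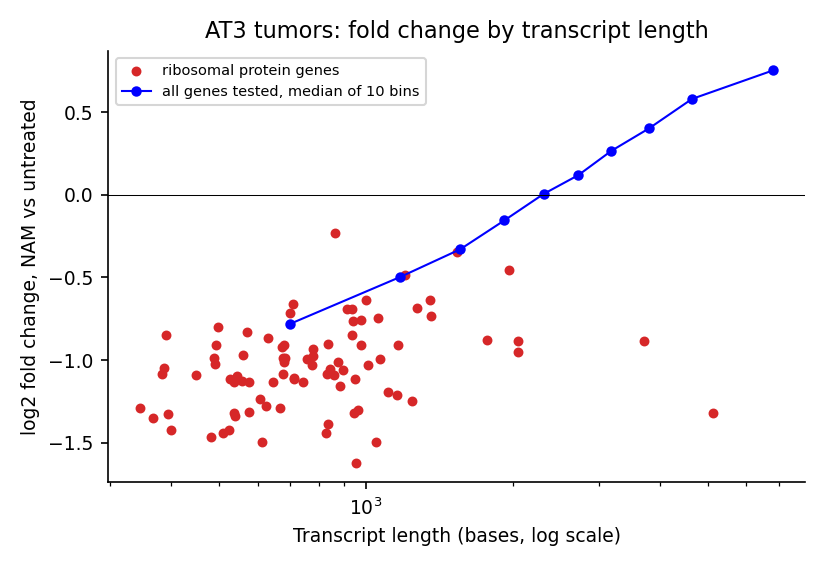
Log2 fold change under NAM in AT3 tumors (y axis) against transcript length in bases on a log axis (x axis), for the ribosomal protein genes (red points) and as the median of all genes tested with a length in 10 bins of equal size (blue line). The line runs from -0.78 in the bin of shortest transcripts to 0.75 in that of the longest, and the members, whose median is -1.04, have mostly short transcripts.

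Other lists tied to the ribosome give the setting of the fall in AT3 tumors. Of the 75 mitochondrial ribosomal protein genes, which encode a separate ribosome, 75 were below 0 and 47 were lower (median -0.74; 18 and -0.26 with the length and GC trend taken off), with Mrpl23 at -1.35 ± 0.363 and Mrpl33 at -1.29 ± 0.397 (SE). Of the 26 translation factors and other cytosolic TOP mRNAs, 11 were lower and 0 higher (median -0.62; 4 lower and -0.15 with the trend taken off). They include Fau, which encodes a ribosomal protein of the small subunit as a fusion and escapes the symbol rule. Fau fell by 1.16 ± 0.288 on the log2 scale (SE). Over all genes, 12.2% were higher in this comparison. Of the 38 ribosome biogenesis genes, 6 were lower and 3 higher (median -0.07; 4 lower and 1 higher with the trend taken off), so that the factors which build ribosomes had no common direction. The polymerase I initiation factor Rrn3 rose, with a log2 fold change of 0.76 ± 0.258 (SE), and the nucleolar protein Nhp2 fell, with one of -0.91 ± 0.316 (SE). Of the 16 regulators of ribosome production, 5 were higher and 0 lower (median 0.24; 1 higher and 0.03 with the trend taken off), among them the mTOR partner Rptor (1.45 ± 0.473, SE), the mTOR inhibitor Tsc1 (1.03 ± 0.349, SE) and the translation repressor Eif4ebp2 (0.98 ± 0.336, SE). Of the 15 genes of ribosome stress and quality control, 3 were higher, led by the ubiquitin ligase Ltn1 (1.51 ± 0.42, SE), and 1, the stress factor Atf4, was lower (-0.72 ± 0.258, SE). With the trend taken off, 1 of the 15 was higher and 0 lower. The 9 proliferation markers summed to 62709 to 78302 normalized counts in untreated and to 62500 to 73212 in NAM-treated AT3 tumors, which overlapped. Higher were 4 of 5 endothelial (2 with the trend taken off), 3 of 6 macrophage (1) and 2 of 7 fibroblast markers (2). Of 11 epithelial markers 2 were higher and 3 lower (1 and 2 with the trend taken off). Of 10 leukocyte markers 1 was higher and 2 lower (0 and 1). Among neutrophil markers 1 was higher, among adipocyte markers 1 was lower, and 0 muscle or erythroid markers were called. The part of these cell types in the members' values was not tested.

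The third comparison is the difference of the NAM effect between the models, as the M/D effect minus the AT3 effect. It was above 0 in 85 of 86 members, and 36 were called higher, against 6.97% of the 22710 genes tested. The median difference was 0.91 on the log2 scale, beside 0.04 for all genes, and 0 members reached an adjusted p of 0.05 with limma (smallest 0.192) or with edgeR. With DESeq2 2 members did, beside 834 of all 22710 genes in either direction. Rpl10a, of the large subunit, had the smallest p, with a difference of 1.12 ± 0.302 (SE, limma, unadjusted p = 0.00254). It had 12577, 13992, 14231 and 15763 normalized counts in untreated and 16338, 16726, 16584 and 12584 in NAM-treated M/D tumors 1 to 4, against 38953, 23688 and 37230 in untreated and 20421, 15677 and 13841 in NAM-treated AT3 tumors 1 to 3. The AT3 groups did not overlap and the M/D groups did. Rpl32l, Rpl10, Rpl36a, Rps21 and Rpl38 had differences of 1.48 ± 0.438, 1.67 ± 0.529, 1.40 ± 0.453, 1.39 ± 0.455 and 1.25 ± 0.419 (SE). The largest difference, that of Rpl3l, was 2.36 ± 1.83 (SE, limma, unadjusted p = 0.219) and did not pass. Only Rps4l was below 0, at -0.51 ± 0.8 (SE, limma, unadjusted p = 0.537). The count rested on single tumors: it was 9 without untreated AT3 tumor 1 or without NAM-treated AT3 tumor 3, 10 without untreated AT3 tumor 3 78 without untreated AT3 tumor 2, 60 without NAM-treated AT3 tumor 1 and 13 without NAM-treated AT3 tumor 2. Leaving out M/D tumors gave 23 for NAM-treated tumor 1 (experiment 2), 18 for NAM-treated tumor 2, 71 for NAM-treated tumor 4, and 22 and 21 for untreated tumors 1 and 3. The share of all genes called higher ran from 3.84 to 9.98% in these repeats. With the length and GC trend taken off, 6 members were higher (Rpl9, Rpl10, Rpl12, Rpl17, Rps13 and Rps15a, named after their values were seen), against 5.26% of all genes so tested. Short transcripts stood apart here too, with a rho of -0.405 between the difference and transcript length over 18923 genes.

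The fourth comparison sets untreated M/D tumors against untreated AT3 tumors, which differ in experiment as well as in model. Since the models had been normalized apart, reads were rescaled over the 14 tumors by the median ratio to each gene's geometric mean. In M/D tumors 82 of 86 members were lower and 1 was higher, against 26.4% of all 21721 genes that were lower and 30.1% that were higher. All 82 had an adjusted p no larger than 0.05, a call made for 23.6% of all genes in the lower direction, and the median log2 fold change was -1.47, beside 0.04 for all genes. In 80 members every untreated M/D tumor lay below every untreated AT3 tumor, against 25.8% of all genes. Transcript length moved with this comparison as well (rho 0.352 over 18223 genes), and other genes with transcripts of up to 1000 bases had a median log2 fold change of -1.03. With the length and GC trend taken off, 78 members were lower, against 36.0% of all genes so tested. Scaling to total reads moved the median of all genes to 0.40 and that of the members to -1.13. Then 79 members were lower, beside 4056 of all 21705 genes.

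The members with the largest differences were relatives of ribosomal protein genes. Rpl22l1, a paralog of Rpl22 that can take its place in the ribosome, had a log2 fold change of -2.82 ± 0.312 (SE, limma, adjusted p = 0.000297), and Rps27l, a paralog of Rps27 induced by p53, one of -2.80 ± 0.376 (SE, limma, adjusted p = 0.000674). Rpl38, Rps13, Rpl27 and Rps27a were also lower in M/D tumors, with log2 fold changes of -2.35 ± 0.277, -2.41 ± 0.338, -2.14 ± 0.312 and -2.02 ± 0.268 (SE). The stalk genes Rplp0, Rplp1 and Rplp2 differed less, with -1.21 ± 0.396, -1.24 ± 0.327 and -1.33 ± 0.297 (SE), as did Rpsa with -1.22 ± 0.367, Rps6 with -1.38 ± 0.324, Rpl5 with -1.43 ± 0.313 and Rpl11 with -1.23 ± 0.328 (SE). Rps4l, a relative of the X-linked Rps4x, was the member that was higher in M/D tumors, with 2120, 395, 1537 and 3430 deposited normalized counts in untreated M/D and 475, 368 and 360 in untreated AT3 tumors. Its log2 fold change was 1.46 ± 0.62 (SE, limma, unadjusted p = 0.0446, adjusted p = 0.0779), untreated M/D tumor 2 overlapped with the AT3 tumors, and the call was lost without untreated M/D tumor 1, 3 or 4 or without any 1 of the AT3 tumors. Rpl4, Rpl3l and Rpl39l were neither higher nor lower, at -0.53 ± 0.306, -0.24 ± 1.14 and -0.83 ± 0.902 (SE).

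Other lists stood beside these values. Mitochondrial ribosomal protein genes were lower in untreated M/D tumors for 73 of 75 (median -1.50), 16 of 26 translation factors and other TOP mRNAs were lower and 2 higher, and 16 of 38 ribosome biogenesis genes were lower and 4 higher. Of the 16 regulators, 7 were higher and 5 lower (median 0.46), with Mtor higher by a log2 fold change of 1.29 ± 0.182 (SE). Taking the length and GC trend off moved the median of all genes to -0.36 and left 36.0% of them lower. The regulators then turned direction, with 1 higher and 9 lower (median -0.67). The biogenesis genes (29 lower, 0 higher) and the translation factors and other TOP mRNAs (17 lower, 0 higher) kept theirs. The parts of length, of GC content and of the shift of all genes in these changes were not tested apart. The mitochondrial list stayed at 73 of 75 lower. In the same comparison 5 of 9 proliferation markers were lower in M/D tumors, and 8 of 11 epithelial, 5 of 5 endothelial, 5 of 5 adipocyte and 6 of 10 leukocyte markers were higher. The part of these cell types in the members' values was not tested.

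Ratios within a tumor do not depend on its scaling, but can depend on the length and GC content of the paired transcripts. The promoters of both paralog pairs are shown because the ratios differed between the models, with capitals for the same motifs as above, from the first start of RefSeq for Rpl22 and Rps27l, which have 2.
Rpl22l1 (chr3:28805448-28805527, plus strand): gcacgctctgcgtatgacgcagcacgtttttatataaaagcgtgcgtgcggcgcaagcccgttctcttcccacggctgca
Rpl22 (chr4:152325666-152325745, plus strand): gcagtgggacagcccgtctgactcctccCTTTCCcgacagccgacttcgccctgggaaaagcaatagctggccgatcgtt
Rps27l (chr9:66946026-66946105, plus strand): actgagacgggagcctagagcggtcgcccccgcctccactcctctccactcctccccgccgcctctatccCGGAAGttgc
Rps27 (chr3:90213629-90213708, minus strand): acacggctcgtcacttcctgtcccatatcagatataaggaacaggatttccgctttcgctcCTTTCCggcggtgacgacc
Rpl22l1 had 13.9, 8.36, 14.04 and 11.7% of the normalized count of Rpl22 in untreated M/D tumors 1 to 4 and 13.1, 31.9, 13.8 and 10.3% in NAM-treated M/D tumors 1 to 4. In AT3 tumors 1 to 3 it had 47.8, 40.5 and 56.9% untreated and 43.5, 28.4 and 34.6% under NAM. Every untreated AT3 tumor lay above every untreated M/D tumor, and the mean log2 ratio differed by -2.03 (exact two-sided permutation test, p = 0.0571, the smallest that 4 against 3 tumors allow; 0.343 after Benjamini-Hochberg adjustment over 21 tests of 7 pairs). Between NAM-treated and untreated AT3 tumors the groups overlapped (difference -0.46, exact p = 0.2, where 0.1 is the smallest that 3 against 3 allow). With the length and GC trend taken off both genes, a repeat chosen after seeing the data, the difference between the models shrank to -0.64 and that under NAM in AT3 tumors turned to 0.54.

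The normalized count of Rps27l exceeded that of Rps27 in all 14 tumors. These counts were not divided by length and the handling of shared reads is not given, so they do not rank both genes by level. The count of Rps27l was 361, 174, 220 and 201% of that of Rps27 in untreated M/D tumors 1 to 4 and 217, 266, 259 and 226% in NAM-treated M/D tumors 1 to 4. In AT3 tumors 1 to 3 it was 473, 462 and 675% untreated and 585, 400 and 597% under NAM. The models did not overlap in untreated tumors (difference of the mean log2 ratio -1.20, exact p = 0.0571, adjusted 0.343), and NAM made a difference of 0.07 in M/D and of -0.03 in AT3 tumors, where the groups overlapped. With the trend taken off, the difference between the models was -1.18.

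**Figure D5:**
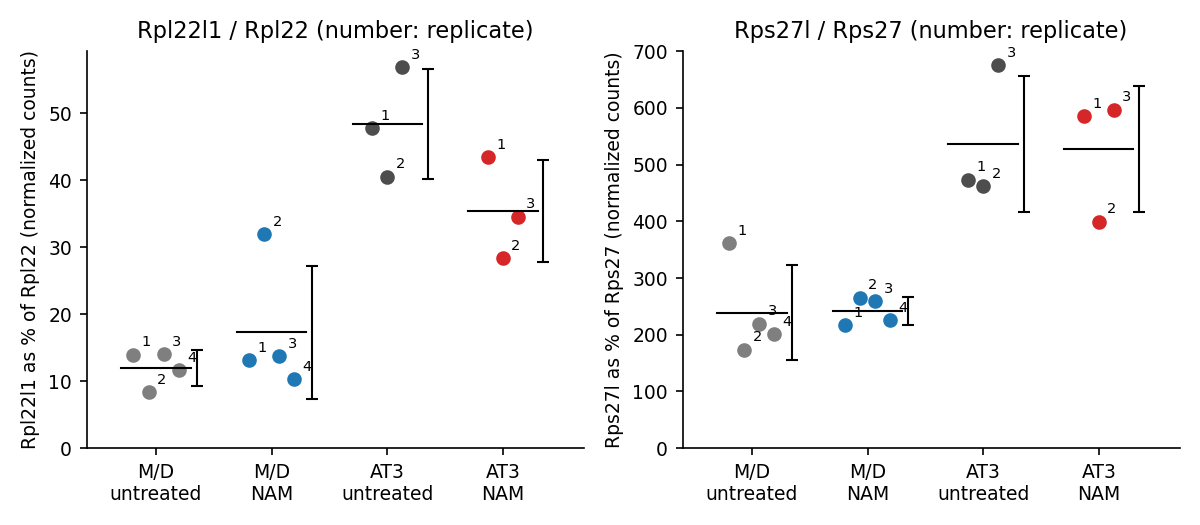
Normalized count of Rpl22l1 as a percent of that of Rpl22 (left, y axis) and of Rps27l as a percent of that of Rps27 (right, y axis) in each tumor (points, numbered by replicate) of the 4 groups (x axis), with the mean (line) and SD (bar). Untreated AT3 tumors lie above untreated M/D tumors in both panels, and the M/D tumor highest for Rpl22l1 is NAM-treated tumor 2 at 31.9%.

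Of the other 5 pairs, Rpl36al, Rpl7l1 and Rps4l had higher ratios to Rpl36a, Rpl7 and Rps4x in every NAM-treated than in every untreated AT3 tumor (differences of the mean log2 ratio of 0.47, 0.45 and 0.53, exact p = 0.1 each, adjusted 0.343). With the trend taken off these were 0.25, -0.0017 and 0.50. Rps4l reached 0.496 to 4.48% of Rps4x in untreated M/D and 0.251 to 0.423% in untreated AT3 tumors, which did not overlap. Rpl3l stayed between 0.00502 and 2.32% of Rpl3, and Rpl39l, a relative of Rpl39 known from the testis, between 0.0458 and 1.14% of Rpl39, with overlapping groups in the 3 comparisons. The rank of the 4 groups by median for Rpl7l1 as a percent of Rpl7 was 5.25 in untreated AT3, 6.58 in untreated M/D, 7.15 in NAM-treated M/D and 7.44 in NAM-treated AT3 tumors, and neighbours in that order overlapped.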

How the data were processed

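Bulk polyA RNA-seq of 14 tumors was analysed. Reads had been aligned by the authors with STAR 2.4.0 to mm10 and counted over the constitutive parts of genes in the Mouse FAST DB annotation. The deposited signal values are counts divided by DESeq2 size factors, made apart for M/D and AT3 tumors. All values above 0 were whole reads within 0.01 read, so that reads could be recovered. The members and all lists were chosen with earlier results of these data known. Genes with a mean of at least 10 normalized counts in 1 group of a comparison were tested with limma 3.58.1 (trend; R 4.3.3) on log2(normalized count + 1), with Benjamini-Hochberg adjustment over all genes tested. No covariate was used. edgeR 4.0.16 (quasi-likelihood) and DESeq2 1.42.0 on recovered reads, other pseudocounts, filters and scalings, a spline with 4 degrees of freedom on transcript length and GC content, a replicate block and leaving out each tumor were alternatives. The fits were tested on simulated data. Transcript and coding lengths came from GENCODE. Named genes are the stalk genes, Rpsa, Rps6, Rpl5, Rpl11, Rps27a, Rps19bp1, relatives with their partners, the 6 smallest p values per direction, the extremes of each comparison, and the highest and lowest levels. Of the other lists, at most the 3 genes with the smallest p were named.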

Additional observations from a re-analysis of the deposited data

Results flagged for a closer look

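In groups of 4 M/D tumors, 4 of 82 groups tested held a tumor far from the other 3 by Dixon's criterion, which chance meets in about 1 group in 20. Rpl10 had 8629 normalized counts in untreated M/D tumor 2, against 4041 to 4310 in the other untreated M/D tumors. Rpl10a had 12584 in NAM-treated M/D tumor 4, below the 16338 to 16726 of the other NAM-treated M/D tumors. Rpl7l1 had 5240 in untreated M/D tumor 3, below the 6609 to 6701 of the other untreated M/D tumors. Rpl10l had 1.61 in untreated M/D tumor 4 and was at 0 in the others.

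The effect of NAM differed between the models, by the test of the difference itself (limma, unadjusted), in the 6 members with the smallest p. On the log2 scale the M/D effect minus the AT3 effect was 1.48 for Rpl32l, 1.67 for Rpl10, 1.12 for Rpl10a, 1.40 for Rpl36a, 1.39 for Rps21 and 1.25 for Rpl38. With limma, 0 of the 6 passed Benjamini-Hochberg adjustment over all genes, and DESeq2 gave Rpl10a an adjusted p of 0.0262. With the length and GC trend taken off, Rpl10 kept its call (1.25, unadjusted p = 0.0204) and the other 5 lost it, with Rpl32l at 0.76, Rpl10a at 0.64, Rpl36a at 0.66, Rps21 at 0.67 and Rpl38 at 0.50. For Rpl10 and Rpl10a, the difference includes the lone tumors given above.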

How the results depend on the processing

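Of 135 repeats of the counts and shares that answer the comparisons, 114 stayed within their limits and 21 moved; of 1299 repeats for single members and ratios, 1181 kept direction and call, 75 lost and 21 gained a call, and 10 moved and 12 turned direction. For NAM in M/D tumors, DESeq2 gave 1 member higher, beside 1287 of 21700 genes, and 0 to 1 members were lower when single tumors were left out. For NAM in AT3 tumors, 17 members were lower with the length and GC trend taken off and 40 to 82 when single tumors were left out. For the difference between models, 22 members were higher with TMM, beside 1216 of all 22809 genes. With upper quartile scaling 70 members were higher, beside 3230 of 23138 genes, and the median of all genes moved to 0.39. It was 6 members with the length and GC trend taken off and 9 to 78 when single tumors were left out. With a replicate block, 0 members were lower in M/D tumors, beside 522 of 21700 genes. In AT3 tumors 82 members were lower, beside 2380 of 19281 genes, and 48 had an adjusted p no larger than 0.05, beside 1296 genes in either direction. With the trend also taken off, 18 members were lower in AT3 tumors, beside 1163 of 16429 genes. In the difference 39 members were higher with the block, beside 1357 of 22710 genes. Tumors with the same number share only a number: their deviations correlated at -0.44 to 0.11 in M/D and at -0.16 to 0.26 in AT3 tumors. Rps4l in AT3 tumors turned to 0.067 with total reads and to 0.33 with the trend taken off, with and without the block. Rpl3l between untreated models turned to 0.074 with total reads, 0.37 with edgeR and 0.28 with DESeq2, and ran from -0.90 to 0.79 when single tumors were left out. With the trend taken off, the ratio differences turned to 0.54 for Rpl22l1, 0.060 for Rps27l and -0.0017 for Rpl7l1 in AT3 tumors and to -0.21 for Rpl7l1 between untreated models. The cause was not tested. Rpl10l, at 0 in 13 tumors, had too few reads to be tested.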
